A study of Mus musculus with 9 samples.

Results

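The comparison described here sets leukaemia cells taken from the lungs of mice beside the same leukaemia grown in culture, across all genes. It uses 6 of the 9 libraries of the series, chosen by their titles: 3 of AML cells from lung and 3 of AML cells from in vitro culture. AML stands for acute myeloid leukaemia, and every cell studied was of mouse and carried the genotype Trp53(R172H/delta), where R172H marks 1 amino acid exchange in p53, the tumour suppressor, and delta is the usual sign for a deleted allele. The recipients of the leukaemia were wild-type (WT) mice. The other 3 libraries, of the same AML cells from bone marrow, entered the statistical fit and are given beside some genes. Which transgenes or drivers the leukaemia carried, whether it was 1 clone, the culture medium, the age of the mice and the way leukaemia cells were separated from tissue are not stated in the labels. Nor do the labels say whether replicates were separate mice and cultures. The p-values rest on the spread between replicates, which may be technical. In the main fit that spread is estimated with the bone marrow libraries included.

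Leukaemia cells in a dish live in medium rich in glucose, amino acids and serum factors, while cells in the lung take nutrients and oxygen from blood and receive signals from endothelium, epithelium and immune cells. Several transcriptional programmes are known to read such surroundings. Hypoxia-inducible factor (HIF) drives glycolytic and angiogenic genes when oxygen is low, SREBP factors drive sterol and fatty acid synthesis, ATF4 drives amino acid transport and synthesis genes during nutrient and oxidative stress, NF-kB and AP-1 factors drive rapid responses to stimuli, and interferons drive antiviral and antigen presentation genes.

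Between 27485111 and 38132239 reads were counted per library in the 6 libraries compared, and 1 read corresponded to 0.0262 to 0.0371 CPM (counts scaled to a common library size, on library sizes scaled by TMM). Replicates varied less in culture than in lung, with median coefficients of variation over genes of 6.75% and 11.5%. On the first 2 principal components, which held 63% and 19.7% of the variance, the lung and culture libraries lay apart. Reads of the mitochondrial genome took 0.163% to 0.195% of each of the 6 libraries.

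The targeted gene and the cells' identity were examined first. Trp53 was at 297, 295 and 293 CPM in the culture libraries and at 304, 335 and 381 CPM in the lung libraries, with no overlap (log2 change 0.20 ± 0.09 SE, adjusted p = 0.0783), and the missense and deleted alleles cannot be told apart in these counts. In a fit of the 6 libraries alone its adjusted p was 0.0228. Kit, the stem cell factor receptor found on blood progenitors and mast cells, was at 1130, 1158 and 1214 CPM in culture and at 764, 624 and 506 CPM in lung, and it fell (log2 change -0.89 ± 0.13, adjusted p = 6.74e-05). Ptprc, the gene of the leukocyte surface antigen CD45, stood at 1.52, 2.03 and 1.31 CPM in culture and at 9.35, 5.71 and 9.27 CPM in lung. The 3 lung values of Ptprc lay above the 3 culture values, but its adjusted p was 0.0642 in the fit of all libraries and 4.91e-06 in the fit of the 6 libraries alone. Bone marrow, whose spread enters the fit of all libraries, held 1.78, 2.42 and 17.2 CPM. Without bone marrow replicate 1, 2 or 3 the edgeR adjusted p was 0.0261, 0.0374 and 2.27e-06. Among defining genes of myeloid cells, Mpo (myeloperoxidase) was at 0.0742, 0 and 0 CPM in culture and at 2.25, 0.457 and 0.158 CPM in lung. The erythroid transcription factor gene Gata1 was at 380, 389 and 378 CPM in culture and at 286, 313 and 356 CPM in lung. Neutrophil granule genes as a list summed to only 2.52 to 4.03 CPM in culture. Cpa3, of mast cell granules, was at 22, 21.4 and 18.6 CPM there. Erythroid genes as a list were measured in every library. The cells are called AML cells here as the labels do.

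The change between culture and lung was broad. Of 15066 genes tested, 8271 passed at an adjusted p under 0.05, which is 54.9% of all genes tested. In lung 4204 genes (27.9%) were higher and 4067 (27% of those tested) were lower. Changes over 2-fold were called for 1597 genes higher (10.6%) and 1528 lower (10.1%), and over 4-fold for 795 higher and 427 lower. The median log2 change over all genes tested was 0.02, with quartiles of -0.45 and 0.51. The 3 lung and 3 culture values did not overlap for 10068 genes (66.8%). These shares are the background against which each list of genes below is read. Genes were named by a rule of size within each list. Beyond that rule, genes named because they did not pass, defining markers of cell types, and the genes said so beside their values were chosen after their values were seen.

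**Figure D1:**
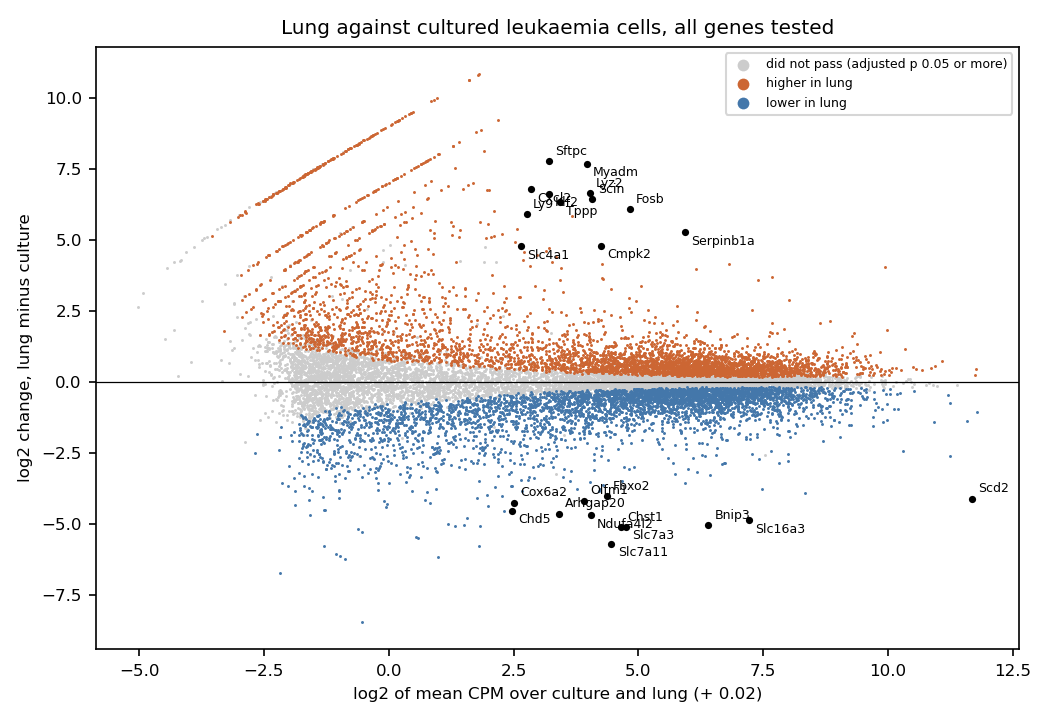
Log2 change in lung against culture (vertical axis) for each of the 15066 genes tested, against the log2 of the mean CPM over the culture and lung libraries plus 0.02 (horizontal axis). Orange genes passed as higher in lung, blue as lower, grey did not pass, and the 12 largest rises and 12 largest falls that reach 10 CPM are named in black. Straight lines of points at the upper left are genes with few or no reads in culture, whose fitted change depends on the small count added.

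The largest rises among genes that reached 10 CPM joined a lung epithelial gene, response genes and genes of mature blood cells. Sftpc, which encodes surfactant protein C of alveolar type II cells, was at 0.0371, 0.0923 and 0.107 CPM in culture and at 35.9, 8.25 and 10.9 CPM in lung (log2 change 7.78 ± 0.84, edgeR adjusted p = 6.97e-05). Its level in lung replicate 1 was well above those in the other 2 lung libraries, and bone marrow held 0.0297, 0.031 and 0 CPM. Myadm, a myeloid-associated membrane protein gene, was at 0.148, 0.154 and 0.142 CPM in culture and at 38.4, 34.4 and 20.7 CPM in lung (log2 change 7.68 ± 0.69, edgeR adjusted p = 2.41e-05).

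Cxcl2, a chemokine that attracts neutrophils, went from 0.185, 0.123 and 0.071 CPM to 10.1, 17.6 and 14.9 CPM (log2 change 6.77 ± 0.36, adjusted p = 8.36e-09). Lyz2, the lysozyme of macrophages and neutrophils, was at 0.111, 0.369 and 0.462 CPM in culture and at 52.2, 15.8 and 29.1 CPM in lung (log2 change 6.65 ± 1.51, edgeR adjusted p = 0.01). The bone marrow libraries ranged from 27.8 to 289 CPM. Between lung libraries the chemokine varied less than lysozyme, which varied several-fold. Klf2, a Kruppel-like factor gene of endothelium and quiescent lymphocytes, was at 0.26, 0.215 and 0.071 CPM in culture and at 22.6, 19.4 and 12.9 CPM in lung (log2 change 6.62 ± 0.62).

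Scin encodes the actin-severing protein scinderin. It was at 0.519, 0.277 and 0.355 CPM in culture and at 58.2, 17.5 and 23.3 CPM in lung (log2 change 6.44 ± 1.20, edgeR adjusted p = 0.00402). Tppp, which encodes a tubulin polymerisation-promoting protein, was at 0.111, 0.277 and 0.391 CPM in culture and at 27, 26.2 and 10.6 CPM in lung (log2 change 6.32 ± 0.45). Ly9, a SLAM-family surface receptor gene of lymphocytes, was at 0.445, 0.123 and 0.107 CPM in culture and at 12.9, 11 and 16 CPM in lung (log2 change 5.91 ± 0.37). For each of these genes the lowest lung library lay above the highest culture library, which the naming rule required of the largest rises. Serpinb1a, an inhibitor of neutrophil serine proteases, was at 3.93, 2.83 and 2.59 CPM in culture and at 75.9, 195 and 88.3 CPM in lung (log2 change 5.27 ± 0.70). Sftpc marks a cell type of the host lung, and the part of host cells in the other rises was not tested. In bulk RNA, more cells of a type and more RNA per cell cannot be told apart.

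The largest falls included genes of nutrient transport, hypoxia and lipid synthesis. Slc7a11 encodes the cystine and glutamate exchanger xCT, which supplies cysteine for glutathione. Its level was 41.8, 42 and 45.8 CPM in culture and 0.917, 0.783 and 0.759 CPM in lung (log2 change -5.71 ± 0.20, edgeR adjusted p = 3.58e-10). Slc7a3, a cationic amino acid transporter gene, went from 52.2, 52.7 and 53 CPM to 1.91, 1.14 and 1.45 CPM (log2 change -5.11 ± 0.18, adjusted p = 3.58e-10). Both transporters were close to constant among the culture libraries and under 2 CPM in every lung library.

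Chst1, a carbohydrate sulfotransferase gene, was at 48.4, 48.2 and 49.5 CPM in culture and at 1.23, 1.24 and 1.71 CPM in lung (log2 change -5.13 ± 0.18). Bnip3, a mitophagy receptor gene and HIF target, went from 155, 159 and 176 CPM to 5.24, 5.35 and 4.3 CPM (log2 change -5.04 ± 0.18, adjusted p = 1.28e-09). Slc16a3 encodes MCT4, the transporter that carries lactate out of glycolytic cells. It was at 277, 275 and 313 CPM in culture and at 8.54, 11.4 and 9.49 CPM in lung (log2 change -4.88 ± 0.25, edgeR adjusted p = 3.07e-07). Ndufa4l2, a further hypoxia-induced gene of the respiratory chain, was at 32.3, 29.8 and 33.3 CPM in culture and at 0.655, 1.83 and 1.23 CPM in lung (log2 change -4.70 ± 0.31).

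Arhgap20, a GTPase-activating protein gene, fell by 4.64 ± 0.28 on the log2 scale. Chd5, a chromatin remodeller gene, fell by 4.54 ± 0.57 from 11.3, 9.08 and 11.4 CPM to 0.917, 0.0326 and 0.348 CPM. Cox6a2, the heart and muscle form of a cytochrome c oxidase subunit, fell by 4.25 ± 0.25. Olfm1 (olfactomedin 1) fell by 4.18 ± 0.26 and Fbxo2, a ubiquitin ligase component that binds glycoproteins, by 4.02 ± 0.20 on the same scale. Scd2 encodes a stearoyl-CoA desaturase, the enzyme that puts the first double bond into fatty acids. It was at 6019, 6197 and 6507 CPM in culture and at 412, 303 and 367 CPM in lung, so that the libraries of the 2 groups lay far apart (log2 change -4.11 ± 0.13, adjusted p = 3.41e-10).

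**Figure D2:**
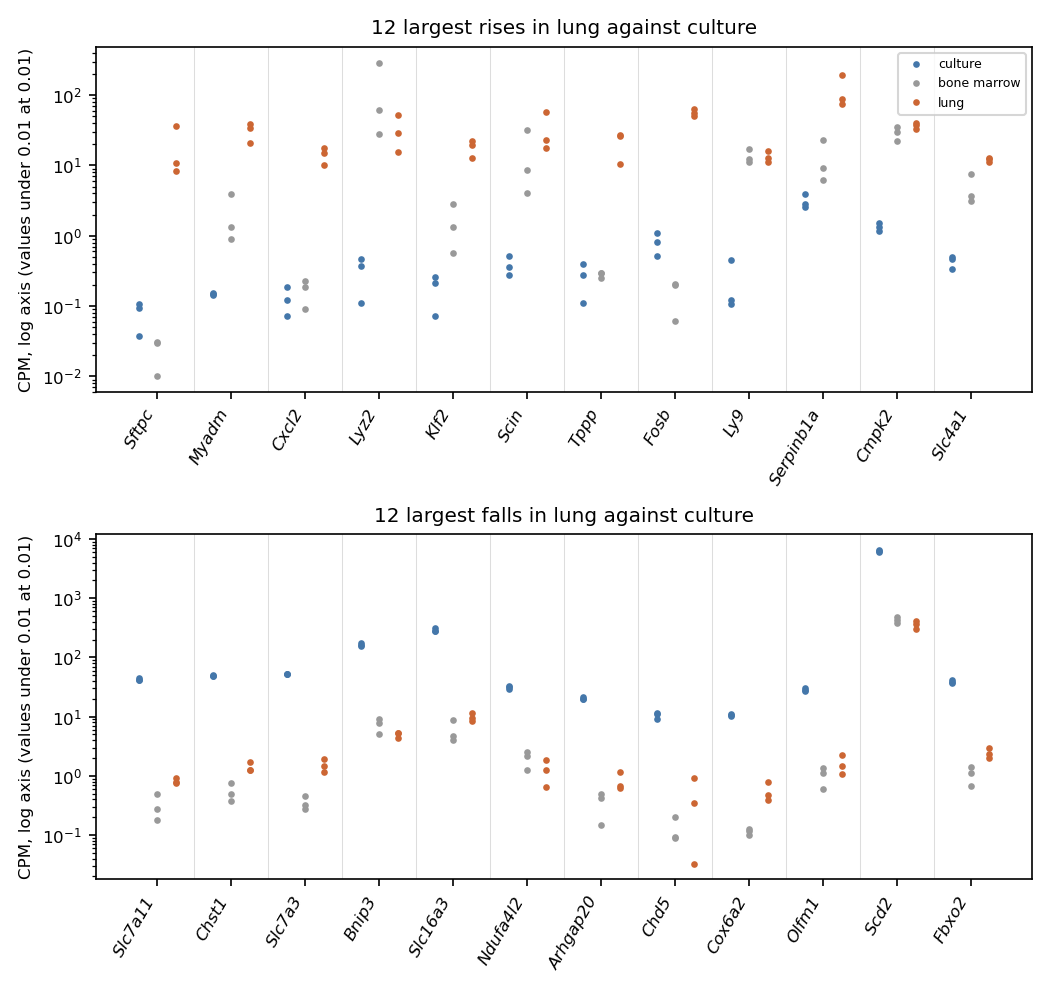
CPM per library on a log axis for the 12 largest rises (upper panel) and the 12 largest falls (lower panel) among genes that reach 10 CPM in the higher group, with values under 0.01 drawn at 0.01. Each point is 1 library of culture (blue), bone marrow (grey) or lung (orange). Only genes whose orange and blue points do not overlap could be picked, so orange lies above blue throughout the upper panel and below it throughout the lower. The grey points of Sftpc, Cxcl2, Tppp and Fosb lie close to or below the blue ones.

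Positions of these genes are those of GRCm38. Slc7a11 lies on chromosome 3 from 49892526 to 50443614 on the minus strand, Slc16a3 on chromosome 11 from 120948480 to 120960868 on the plus strand, and Scd2 on chromosome 19 from 44293674 to 44306864 on the plus strand. Cxcl2 lies on chromosome 5 from 90903871 to 90905938 and Sftpc on chromosome 14 from 70520949 to 70524081. Reads were counted over whole genes, so no value here belongs to 1 exon or transcript.

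Hypoxia and HIF target genes were lower in lung than in culture. Of 25 genes in the list, 23 were in the files and 20 were tested. Of these, 16 fell and 1 rose, beside 27% and 27.9% of all genes tested, and the median log2 change was -1.31. Vegfa, the growth factor gene for blood vessels, was at 122, 120 and 96.9 CPM in culture and at 10.3, 8.84 and 9.77 CPM in lung (log2 change -3.55 ± 0.36, edgeR adjusted p = 6.37e-05). Its bone marrow libraries held 0.506, 0.712 and 2.54 CPM, below all lung values. P4ha1, a collagen prolyl hydroxylase subunit gene, fell from 132, 132 and 149 CPM to 17.1, 19.9 and 31.4 CPM (log2 change -2.60 ± 0.35). Pdk1, the kinase that keeps pyruvate from the mitochondrial pyruvate dehydrogenase, fell from 279, 290 and 308 CPM to 161, 152 and 120 CPM (log2 change -1.02 ± 0.17, adjusted p = 0.000426). Pfkfb3, which makes an activator of glycolysis, was the 1 riser, from 3.38, 2.8 and 3.27 CPM to 6.76, 8.06 and 10.1 CPM (log2 change 1.40 ± 0.20). Slc2a3, Egln1 and Ndrg1 did not pass. P4ha1, Pdk1 and Pfkfb3 were chosen after their values were seen.

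Promoter sequences put the list's response element in view. Each stretch below is upstream of the annotated start of its gene, from RefSeq (GRCm38.p6), 5′ to 3′ on the gene's strand, and shows a gene that fell; capitals mark every match to the HIF core, ACGTG or GCGTG on either strand, where neighbouring matches can overlap. Bnip3 is shown for its 5 matches and the largest fall of the list (minus strand, chr7:138909512-138909630), Pdk1 for 1 of its 2 matches (plus strand, chr2:71873121-71873175).
Bnip3: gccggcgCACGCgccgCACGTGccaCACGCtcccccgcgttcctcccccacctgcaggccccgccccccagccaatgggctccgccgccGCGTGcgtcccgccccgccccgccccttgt
Pdk1: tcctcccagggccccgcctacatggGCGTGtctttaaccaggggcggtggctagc
Of the 16 members that fell, 13 had a promoter in the table, and all 13 of those held the core within the 300 bases around the start. The core is short and common: 66.1% of the 10395 tested genes with a promoter held it as well. A match describes the letters in the window and is not a measured binding site.

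Glycolytic genes fell with similar breadth. All 19 members of the list were tested, 17 fell and 1 rose, with a median log2 change of -1.51. The falls covered nearly the whole path from glucose to lactate. Slc2a1, the glucose transporter GLUT1, fell by 1.73 on the log2 scale. Hk2, hexokinase 2, which traps glucose in the cell, went from 83, 79.9 and 86.4 CPM to 11.2, 13.6 and 13.8 CPM (log2 change -2.69 ± 0.16). Gpi1, the isomerase of the second step, went from 2132 ± 64.7 to 397 ± 16.5 CPM (mean ± SD, n = 3). Aldoc, an aldolase isoform gene, fell from 54.4, 53.2 and 53 CPM to 6.57, 7.24 and 6.45 CPM (log2 change -2.99 ± 0.14, adjusted p = 2.71e-09). Pgk1, which makes the first ATP of the pathway, fell from 434, 426 and 457 CPM to 74.1, 73.6 and 78 CPM (log2 change -2.54 ± 0.07). No lung value of these enzymes came near a culture value.

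Further down, Pkm (pyruvate kinase) went from 4423 ± 218 to 1713 ± 93.4 CPM and Ldha, the lactate dehydrogenase subunit, from 4749 ± 253 to 2289 ± 140 CPM, both past the test. Slc16a1 encodes MCT1, a transporter that moves lactate and pyruvate in either direction. It was the 1 member that rose, from 254, 266 and 292 CPM to 446, 415 and 438 CPM (log2 change 0.68 ± 0.08, adjusted p = 1.46e-05). The 2 monocarboxylate transporters of the list thus passed in opposite directions, Slc16a3 lower and Slc16a1 higher in lung. Pfkm, the muscle form of phosphofructokinase, did not pass (177 and 171 CPM on average in culture and lung). Hk2, Slc2a1, Gpi1, Pgk1, Pkm and Ldha were chosen after their values were seen.

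Cholesterol synthesis and uptake genes were the list with the lowest median, -1.62 on the log2 scale. Of 25 members, all tested, 23 fell and 1 rose. Fdps, which makes farnesyl diphosphate, went from 175, 174 and 195 CPM to 21.5, 24.8 and 27.5 CPM (log2 change -2.88 ± 0.12, adjusted p = 1.28e-09). Msmo1, a methylsterol oxidase gene, went from 331, 340 and 349 CPM to 71, 62.9 and 53.5 CPM (log2 change -2.44 ± 0.11, adjusted p = 2.52e-09). Srebf2, the gene of their activator, fell from 679, 687 and 720 CPM to 290, 280 and 245 CPM (log2 change -1.36 ± 0.09). Srebf2 was chosen after its values were seen. The classical sterol element CACCCCAC was found in 2 of the 16 falling members with a promoter in the table, and in 3.79% of tested genes with a promoter.

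In fatty acid synthesis and desaturation 10 of 15 tested members fell and 2 rose (median log2 change -1.01). The stearoyl-CoA desaturase genes fell most. Beside Scd2, Scd1 fell from 577, 615 and 632 CPM to 45.9, 33 and 43.2 CPM (log2 change -3.90 ± 0.18, adjusted p = 3.52e-08), and Fads1, which desaturates polyunsaturated fatty acids and was chosen after its values were seen, fell by 2.09. The other falls were those of Me1, Srebf1, Acss2, Fads2, Acsl3, Acly and Elovl5, with log2 changes of -2.81, -1.55, -1.22, -1.13, -1.01, -0.35 and -0.32. Fasn, the fatty acid synthase, was at 351, 360 and 363 CPM in culture and at 456, 463 and 392 CPM in lung (log2 change 0.29 ± 0.10, edgeR adjusted p = 0.0286). That rise lost its call when any 1 culture library, or lung replicate 1 or 2, was left out (adjusted p = 0.0718 to 0.147). Elovl1, an elongase of very long chains, rose by 0.29 ± 0.08, and the acetyl-CoA carboxylase genes Acaca and Acacb and the elongase gene Elovl6 did not pass.

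Fatty acid oxidation genes were mixed, with 7 of 18 members higher and 6 lower (median log2 change 0.04). Hadh, a dehydrogenase of the oxidation spiral, rose from 66.2, 66.6 and 69.9 CPM to 131, 133 and 111 CPM (log2 change 0.89 ± 0.11). Cpt1a, the gate of fatty acids into mitochondria, rose from 89.9, 88.4 and 98.7 CPM to 166, 147 and 110 CPM (log2 change 0.61 ± 0.14, adjusted p = 0.00274). Acadl, the long-chain dehydrogenase, fell by 0.89 ± 0.08, and Ucp2, an uncoupling protein of the inner membrane, by 0.76 ± 0.12. Leaving out culture replicate 1 or culture replicate 2 reduced the higher members to 4.

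Target genes of ATF4, the factor of the integrated stress response, were lower in lung with 1 exception. Of 24 genes in the list 22 were tested, 21 of them fell and 1 rose (median log2 change -1.27). Besides Slc7a11 and Slc7a3, Trib3, a pseudokinase gene, fell from 178, 186 and 196 CPM to 25.8, 21.1 and 30.2 CPM (log2 change -2.86 ± 0.13). Chac1, which degrades glutathione, fell from 46.4, 44.8 and 48.1 CPM to 7.41, 3.33 and 6.48 CPM (log2 change -3.01 ± 0.22, adjusted p = 3.79e-07). Asns, the asparagine synthetase, fell from 1146, 1155 and 1233 CPM to 524, 495 and 479 CPM (log2 change -1.24 ± 0.08). Atf4 itself was at 285 CPM on average in culture and at 210 CPM in lung (log2 change -0.44). Wars, the tryptophanyl-tRNA synthetase, which interferon gamma also induces, rose from 217, 226 and 223 CPM to 304, 311 and 327 CPM (log2 change 0.50 ± 0.08, adjusted p = 0.000206). Trib3, Chac1, Asns and Atf4 were chosen after their values were seen.

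Here the promoter motif is rarer. The composite element TGATGNAA, in which N is any base, was searched on both strands. It was present in 6 of the 17 falling members with a promoter in the table (Aars, Asns, Chac1, Nupr1, Slc7a11 and Trib3) and in 2.71% of tested genes with a promoter. The upstream stretches of 2 members are shown with every match in capitals, Slc7a11 for its 2 matches in opposite orientation (minus strand, chr3:50443628-50443704) and Chac1 for a single match (plus strand, chr2:119351024-119351081).
Slc7a11: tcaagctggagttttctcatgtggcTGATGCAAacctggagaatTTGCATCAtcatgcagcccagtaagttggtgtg
Chac1: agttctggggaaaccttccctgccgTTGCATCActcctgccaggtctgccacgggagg
Slc7a11 and Chac1 fell by 5.71 and 3.01 on the log2 scale.

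Enzymes of serine, proline and one-carbon metabolism split in 2. In that list 8 of 17 tested members fell and 7 rose (median log2 change -0.80). Pycr1, the mitochondrial enzyme of proline synthesis, fell from 119, 117 and 116 CPM to 22.7, 14.5 and 18.2 CPM (log2 change -2.67 ± 0.15). Mthfd2, a mitochondrial folate enzyme, fell from 260, 266 and 261 CPM to 62.7, 61.3 and 81.2 CPM (log2 change -1.94 ± 0.13). Shmt1, the cytosolic serine hydroxymethyltransferase, rose from 40.3, 40.8 and 41.2 CPM to 78.9, 88.7 and 94.2 CPM (log2 change 1.10 ± 0.09), and Gart, of purine synthesis, rose by 0.72 ± 0.08. The serine synthesis genes Phgdh, Psat1 and Psph fell (log2 changes -0.80, -1.04 and -1.33), and the cytosolic folate and nucleotide genes Mthfd1, Tyms and Atic rose (0.57, 0.61 and 0.53). These 6 were chosen after their values were seen.

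Antioxidant genes under NRF2 were divided as well, with 6 of 17 higher and 7 lower (median log2 change -0.07). Me1, the malic enzyme that yields NADPH, fell from 434, 448 and 463 CPM to 53.9, 69.6 and 68.9 CPM (log2 change -2.81 ± 0.11). Txnrd1, the thioredoxin reductase, rose from 94.8, 95.6 and 94.2 CPM to 181, 168 and 178 CPM (log2 change 0.89 ± 0.09), and Prdx1, a peroxiredoxin gene, rose by 0.67 ± 0.08.

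**Figure D3:**
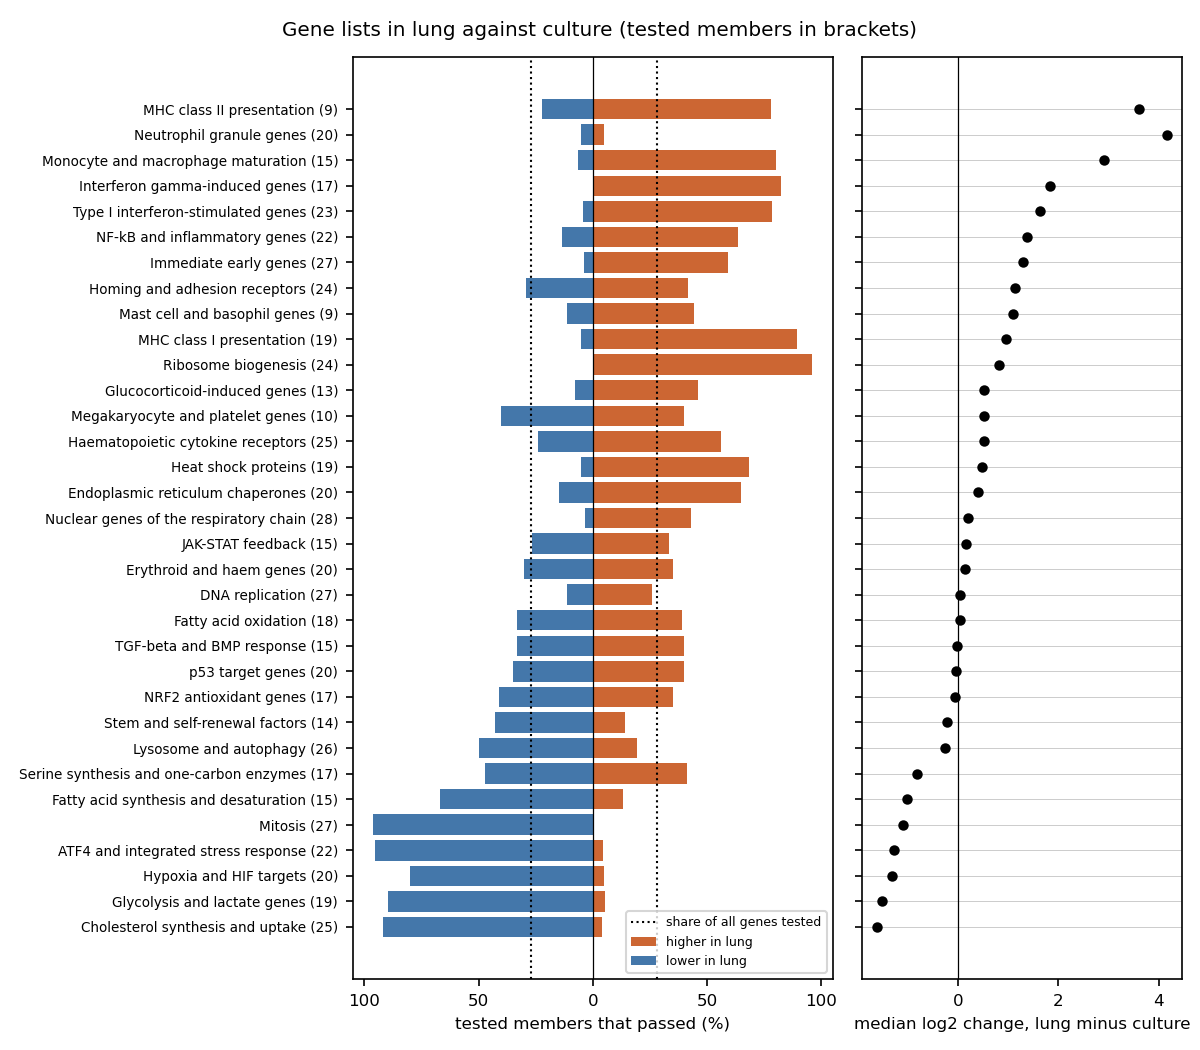
Left, the percent of tested members of each list that passed as higher (orange, to the right) or lower (blue, to the left) in lung, with dotted lines at the shares of all genes tested, 27.9% and 27%. Right, the median log2 change over the tested members, with members at 0 reads in 1 group set to their bound (3 reads). Sterol, glycolysis, hypoxia, ATF4 and mitosis lists stand at the lower end. The MHC class II, neutrophil granule and monocyte lists stand at the upper end, above the interferon and NF-kB lists.

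Immediate early genes, which are transcribed within minutes of a stimulus, were higher in lung than in culture. Of 27 tested members 16 rose and 1 fell (median log2 change 1.29). Fosb, of the AP-1 factor, was at 0.519, 1.11 and 0.817 CPM in culture and at 62.7, 50.1 and 55.6 CPM in lung (log2 change 6.08 ± 0.22, edgeR adjusted p = 4.77e-10). Its relative Fos went from 14.2, 12.9 and 9.06 CPM to 195, 189 and 261 CPM (log2 change 4.16 ± 0.18). Jun went from 168, 176 and 166 CPM to 699, 630 and 898 CPM (log2 change 2.12 ± 0.12). For these 3 genes every lung value lay above every culture value, while the related Fosl1 and Fosl2 did not pass. Dusp1, whose product dephosphorylates MAP kinases, rose from 30.3, 30.9 and 26.9 CPM to 351, 335 and 456 CPM (log2 change 3.70 ± 0.13, adjusted p = 7.04e-10). Egr1 was the exception: it was at 193, 194 and 172 CPM in culture and at 111, 126 and 184 CPM in lung. The groups overlapped, and its fall (log2 change -0.41 ± 0.15, adjusted p = 0.0418) lost its call in the 6 libraries alone (adjusted p = 0.0736) and without lung replicate 1 (adjusted p = 0.134). Myc, Btg2, Ier2 and Ier5 were among the 10 members that did not pass.

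In bone marrow several of these genes stood below culture. Fosb was at 0.208, 0.0619 and 0.199 CPM there, Fos at 0.535, 0.588 and 0.82 CPM and Dusp1 at 4.61, 5.45 and 6.19 CPM. Egr1 was at 7.2, 7.59 and 6.56 CPM, far under both other groups. The level in culture therefore lay between the 2 tissues for several members. Both tissue comparisons share the culture libraries. The part of host cells in the lung values was not tested. Fos and Jun were chosen after their values were seen.

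**Figure D4:**
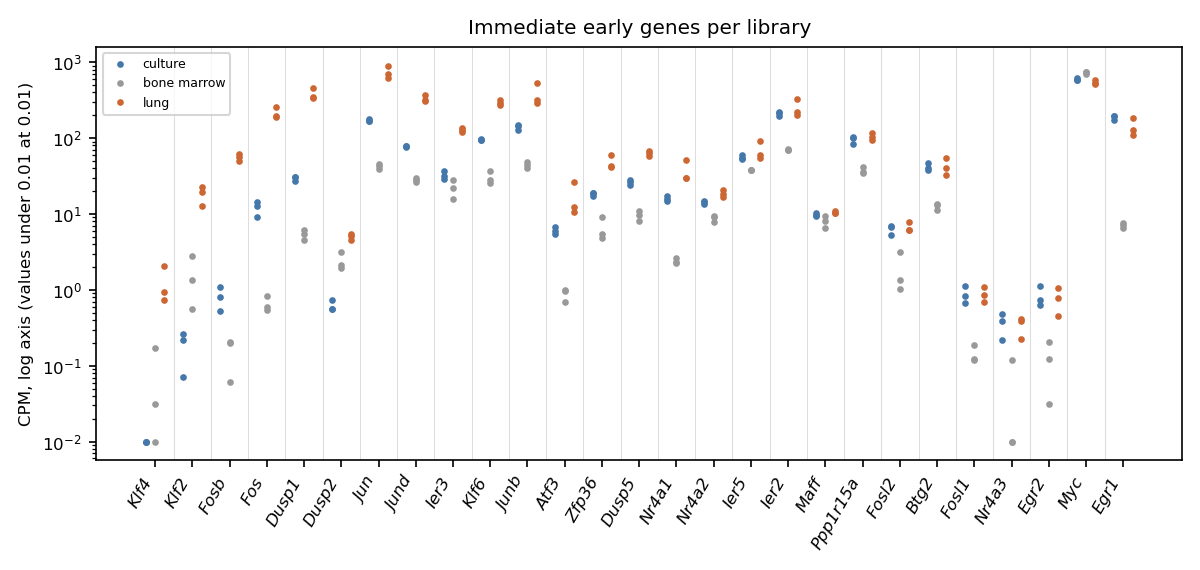
CPM per library on a log axis for the 27 tested immediate early genes, ordered by their log2 change in lung against culture, with values under 0.01 drawn at 0.01. Blue points are culture, grey bone marrow and orange lung libraries. Orange points stand above blue for the genes on the left, from Klf4 to Nr4a2, while for most genes grey points stand below both.

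The cyclic AMP response element TGACGTCA was found in the promoter of 1 of the 16 rising members, Dusp1, and in 3 of the 7 members with a promoter that did not pass, beside 3.59% of tested genes. It is shown for Dusp1 because that gene rose in lung and fell in bone marrow against culture; capitals mark the palindrome, which matches on both strands (minus strand, chr17:26508583-26508640).
Dusp1: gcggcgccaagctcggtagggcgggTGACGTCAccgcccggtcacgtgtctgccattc
The serum response factor box, by name the CArG box, was in 2 of the 16 rising members and in 1.63% of tested genes with a promoter.

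NF-kB and inflammatory genes rose in 14 of 22 tested members and fell in 3 (median log2 change 1.37). With only genes of at least 1 CPM in 6 libraries tested, 7 members rose. That filter tests no gene under 1 CPM in all culture and bone marrow libraries, so smaller counts can mean fewer members tested. Tnfaip3, which encodes the feedback inhibitor A20, was at 112, 113 and 116 CPM in culture and at 1570, 1424 and 2551 CPM in lung (log2 change 4.03 ± 0.23, edgeR adjusted p = 6.33e-07). Nfkbia, the inhibitor that holds NF-kB in the cytoplasm, rose from 48.2, 44.9 and 44.9 CPM to 251, 206 and 342 CPM (log2 change 2.53 ± 0.20). Of the chemokines, Ccl3 and Ccl4 had no read in culture and averaged 0.675 and 0.422 CPM in lung. Of the NF-kB subunit genes in the list Nfkb1, Nfkb2 and Rel did not pass, and Relb fell from 19.2, 18.2 and 16.5 CPM to 11.7, 14.5 and 13.3 CPM (log2 change -0.45 ± 0.13). Tnfaip2 fell from 683, 703 and 710 CPM to 471, 415 and 463 CPM (log2 change -0.64 ± 0.09). Without lung replicate 1 the adjusted p of Relb was 0.0519. Nfkbia, Ccl3, Ccl4, Nfkb1 and Nfkb2 were chosen after their values were seen.

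Among glucocorticoid-induced genes 6 of 13 tested rose and 1 fell (median log2 change 0.53). Sgk1, a kinase gene, went from 34.5, 34.2 and 31 CPM to 151, 174 and 55.9 CPM (log2 change 1.94 ± 0.49, adjusted p = 0.0133, and 0.051 without culture replicate 2). Lung replicate 3 lay well under the other 2 lung libraries for this gene. Tsc22d3, or GILZ, was also lowest in replicate 3 among the lung libraries, at 230, 237 and 244 CPM in culture and at 640, 513 and 342 CPM in lung (log2 change 1.07 ± 0.18). Per1, a clock gene, was at 85.4, 80.5 and 38.7 CPM in lung and at 23.9, 18.5 and 21.3 CPM in culture. Ddit4, an inhibitor of mTOR signalling, fell by 0.96 ± 0.20. Tsc22d3 and Per1 were chosen after their values were seen.

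Genes induced by type I interferon rose in 18 of 23 tested members and fell in 1 (median log2 change 1.63). Cmpk2, a mitochondrial nucleotide kinase gene, went from 1.34, 1.17 and 1.49 CPM to 37.9, 33.1 and 39.6 CPM (log2 change 4.79 ± 0.19, adjusted p = 8.85e-10). Usp18, which removes the ISG15 modifier and damps the interferon receptor, went from 0.668, 0.8 and 0.604 CPM to 20.3, 14 and 16.9 CPM (log2 change 4.61 ± 0.21). Irf7, the factor that amplifies the response, rose from 4.27, 4.31 and 3.69 CPM to 48.9, 30.8 and 38.7 CPM (log2 change 3.27 ± 0.16). Ifit2 went the other way, from 45.6, 45.2 and 43.8 CPM to 25.6, 17 and 19.9 CPM (log2 change -1.10 ± 0.15). Ifit1 and Ifit3 did not pass.

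The interferon-stimulated response element, searched as the letters GAAA on either side of any 2 bases, on both strands, was in 7 of the 13 rising members with a promoter in the table and in 3.72% of tested genes with a promoter. It was also in 3 of the 4 members that did not pass. Isg15 is shown for its 3 overlapping matches (minus strand, chr4:156200850-156200921) and Oas3 for a single one (minus strand, chr5:120777700-120777759), with every match in capitals.
Isg15: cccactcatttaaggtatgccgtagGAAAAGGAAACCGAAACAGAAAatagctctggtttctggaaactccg
Oas3: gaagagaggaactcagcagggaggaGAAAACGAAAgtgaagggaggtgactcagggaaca
Isg15, the ubiquitin-like modifier, was at 0.0742, 0.215 and 0.142 CPM in culture and at 4.77, 4.14 and 6.48 CPM in lung (log2 change 5.09 ± 0.37). Oas3, an antiviral oligoadenylate synthetase gene, rose from 2.08, 2.8 and 1.92 CPM to 22.9, 20.2 and 17.6 CPM (log2 change 3.15 ± 0.20). Isg15, Oas3 and Irf7 were chosen after their values were seen.

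Interferon gamma-induced genes rose in 14 of 17 tested members (median log2 change 1.84). Tgtp2, a T-cell-specific GTPase gene with a near-identical neighbour, Tgtp1, so that the counts of either are uncertain, was at 2.97, 2.68 and 2.84 CPM in culture and at 35.9, 31.4 and 40.3 CPM in lung (log2 change 3.66 ± 0.15). Socs1, the feedback inhibitor of interferon signalling, went from 7.94, 7.91 and 7.81 CPM to 49, 57.3 and 38.5 CPM (log2 change 2.61 ± 0.14, adjusted p = 8.21e-09). Irf1 rose from 4.6, 6.49 and 4.23 CPM to 16, 17.3 and 29.3 CPM (log2 change 2.02 ± 0.24). Irf1 was chosen after its values were seen.

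Antigen presentation through MHC class I rose in 17 of 19 tested members and fell in 1 (median log2 change 0.95). Psmb10, an immunoproteasome subunit gene, went from 27.8, 23.4 and 26.8 CPM to 107, 116 and 130 CPM (log2 change 2.18 ± 0.12). Erap1, which trims peptides in the endoplasmic reticulum, rose by 1.74 ± 0.10, and B2m, the light chain, from 338, 311 and 349 CPM to 495, 497 and 487 CPM. H2-M3, a nonclassical heavy chain, fell by 0.48 ± 0.14. Class I heavy chains are similar in sequence, so counts of a single one are uncertain. B2m was chosen after its values were seen.

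Class II genes stood at very low levels in culture. Of 9 tested members 7 rose and 2 fell, and the median log2 change was 6.74, or 3.60 with the 3 genes that had no read in culture set to their bound. Cd74, the invariant chain, was at 1.48, 1.57 and 1.85 CPM in culture and at 23.4, 11.4 and 24.6 CPM in lung (log2 change 3.60 ± 0.63, edgeR adjusted p = 0.00158). H2-DMa and H2-DMb1, which load peptide, fell. With only genes of at least 1 CPM in 6 libraries tested, 1 member rose and 1 fell. Markers of other cells, whose values are given further on, also rose from near 0 in lung, and their part in these rises was not tested.

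Ribosome biogenesis genes were higher in lung as a near-complete list. Of 24 members, all tested, 23 rose (median log2 change 0.81). Bop1, needed for the large ribosomal subunit, went from 102, 103 and 102 CPM to 306, 317 and 380 CPM (log2 change 1.71 ± 0.09, adjusted p = 6.12e-09). Rrp12 went from 56.8, 61.3 and 62.1 CPM to 187, 200 and 189 CPM (log2 change 1.68 ± 0.08). Ncl, nucleolin, rose from 837, 813 and 788 CPM to 1816, 1654 and 1931 CPM (log2 change 1.15 ± 0.14). Polr1a did not pass. Ncl was chosen after its values were seen.

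Chaperones rose in the cytosol and in the endoplasmic reticulum. Heat shock proteins rose in 13 of 19 tested members and fell in 1 (median log2 change 0.49). Hspa8, the constitutive HSP70, went from 422, 425 and 471 CPM to 1278, 1446 and 1999 CPM (log2 change 1.84 ± 0.18). Hspa1b, an inducible HSP70 with a near-identical neighbour, so that its counts are uncertain, went from 8.64, 7.51 and 6.29 CPM to 49.4, 46.6 and 66.8 CPM (log2 change 2.86 ± 0.28). Dnajb4 fell by 0.60 ± 0.10. In the endoplasmic reticulum 13 of 20 rose and 3 fell (median log2 change 0.40). Creld2, which is induced by unfolded protein, rose from 26.2, 30.1 and 26.3 CPM to 74.4, 74.1 and 94.2 CPM (log2 change 1.55 ± 0.11), and Hyou1 by 1.07 ± 0.11. Herpud1 and Edem1, of the degradation branch, fell by 1.21 ± 0.10 and 0.70 ± 0.09.

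Nuclear genes of the respiratory chain moved little. Of 28 tested, 12 rose and 1 fell, with a median log2 change of 0.20, and 19 rose in the fit of the 6 libraries alone. Cycs, cytochrome c, rose from 27.5, 24.6 and 25.2 CPM to 48.5, 48.6 and 54.8 CPM (log2 change 0.98 ± 0.09), and Cyc1, of complex III, by 0.86 ± 0.08. Ndufa1, of complex I, fell by 0.30 ± 0.11, and its adjusted p was 0.0587 to 0.106 without culture replicate 1, lung replicate 1 or lung replicate 2.

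The cell cycle lists differed. Mitosis genes fell in 26 of 27 tested members (median log2 change -1.09). Nusap1, of the spindle, went from 354, 341 and 366 CPM to 106, 89.4 and 93.9 CPM (log2 change -1.88 ± 0.11). Cenpf, of the kinetochore, went from 147, 140 and 142 CPM to 44, 42.2 and 45.5 CPM (log2 change -1.70 ± 0.13). Ccnb1, cyclin B1, fell from 304, 308 and 338 CPM to 155, 134 and 143 CPM (log2 change -1.14 ± 0.09). DNA replication genes did not follow: 7 of 27 rose, 3 fell and 17 did not pass (median log2 change 0.05). Orc1, of the origin recognition complex, rose by 0.72 ± 0.11, and Rfc3, a clamp loader subunit, by 0.61 ± 0.08. Pold1, of DNA polymerase delta, fell by 0.78 ± 0.09, and Rrm1, the large subunit of ribonucleotide reductase, by 0.45 ± 0.09. The helicase subunit gene Mcm2 was at 502, 516 and 534 CPM in culture and at 475, 442 and 469 CPM in lung, and the difference did not pass (adjusted p = 0.162). The higher replication genes numbered 11 and the lower ones 5 in the 6 libraries alone, and without culture replicate 1 the higher ones numbered 4. The difference between the 2 lists was not tested. Ccnb1 and Mcm2 were chosen after their values were seen.

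Genes that p53 activates did not move one way. Of 20 tested 8 rose and 7 fell (median log2 change -0.03). Aen, an apoptosis-enhancing nuclease gene, rose from 23.8, 25.5 and 21.8 CPM to 50.1, 61.1 and 76.2 CPM (log2 change 1.40 ± 0.15), and Plk3, a stress kinase gene, by 1.18 ± 0.11. Sesn2, which is also on the ATF4 list, fell from 260, 261 and 269 CPM to 50.6, 38.9 and 45 CPM (log2 change -2.55 ± 0.11), and Trp53inp1 fell by 2.31 ± 0.41.

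Among genes of the TGF-beta and BMP response 6 of 15 rose and 5 fell (median log2 change -0.01). Skil, a repressor of SMAD factors, rose by 0.50 ± 0.10, and Id3 and Tgfbr1 fell by 0.99 ± 0.18 and 0.79 ± 0.12.

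Lysosome and autophagy genes were lower in 13 and higher in 5 of 26 members (median log2 change -0.26). Hexa, a hexosaminidase subunit, fell from 67.4, 68.8 and 67.9 CPM to 18, 13.4 and 15.7 CPM (log2 change -2.11 ± 0.13), and the protease gene Ctsl fell from 231, 223 and 228 CPM to 59.7, 60.9 and 49.8 CPM. Gusb, beta-glucuronidase, rose from 74.8, 74.5 and 75.4 CPM to 142, 138 and 134 CPM (log2 change 0.88 ± 0.07), and the membrane protein gene Lamp1 rose by 0.67 ± 0.07.

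Surface receptors included genes read in all libraries and genes that were nearly silent in culture. Of 25 tested cytokine receptors 14 rose and 6 fell (median log2 change 0.51). Il2rg, the common gamma chain, rose from 137, 131 and 133 CPM to 195, 188 and 188 CPM (log2 change 0.51 ± 0.07), and Il4ra, its partner for interleukin 4, by 0.97 ± 0.24. Il1r1 fell from 27.4, 32.3 and 33.7 CPM to 17.9, 15.5 and 12.1 CPM (log2 change -1.04 ± 0.23). The rises of the largest size were at low levels: Csf1r, the receptor of macrophage colony-stimulating factor, was at 0.111, 0.0615 and 0.213 CPM in culture and at 11.3, 5.9 and 8.26 CPM in lung, and Il2rb and Il7r had no read in culture. With only genes of at least 1 CPM in 6 libraries tested, 6 receptors rose. Csf1r, Il2rb and Il7r were chosen after their values were seen.

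In homing and adhesion receptors 10 of 24 rose and 7 fell (median log2 change 1.14), and 5 rose under that filter. Cxcr4, which holds blood cells in the marrow niche, was at 0.705, 0.154 and 0.746 CPM in culture and at 20.4, 9.13 and 8.13 CPM in lung (log2 change 4.58 ± 0.51, edgeR adjusted p = 4.98e-05). Bone marrow held 12, 9.97 and 12.2 CPM of Cxcr4. Itgb3, an integrin chain for vitronectin, rose from 4.6, 5.48 and 3.91 CPM to 8.88, 14.5 and 9.81 CPM (log2 change 1.24 ± 0.21). Itga4, the alpha chain of VLA-4, fell from 362, 389 and 391 CPM to 231, 153 and 137 CPM (log2 change -1.13 ± 0.19), and S1pr1, the receptor for egress into blood, fell by 0.91 ± 0.18.

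Feedback genes of JAK-STAT and growth factor signalling were mixed, with 5 of 15 higher and 4 lower (median log2 change 0.16). Beside Socs1, the kinase gene Pim3 rose from 30.1, 29.8 and 30.4 CPM to 47.4, 40.9 and 51.7 CPM (log2 change 0.63 ± 0.11), and Spred1 and Spred2 fell by 0.46 ± 0.08 and 0.51 ± 0.14. Of 14 tested stem and self-renewal factors 6 fell and 2 rose (median log2 change -0.22). Gata2 fell from 301, 296 and 300 CPM to 162, 205 and 190 CPM (log2 change -0.69 ± 0.09), and Bmi1, a Polycomb gene, rose from 141, 142 and 152 CPM to 205, 185 and 173 CPM (log2 change 0.38 ± 0.08).

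Erythroid and haem genes divided into 7 higher, 6 lower and 7 that did not pass (median log2 change 0.15). Their summed level was 4416 to 4679 CPM in culture and 3975 to 4386 CPM in lung. Epb42, of the red cell skeleton, fell from 74.7, 75.1 and 78.7 CPM to 22.4, 26.6 and 32.8 CPM (log2 change -1.48 ± 0.18). Slc4a1, the red cell anion exchanger band 3, rose from 0.334, 0.462 and 0.497 CPM to 11.1, 12.2 and 12.7 CPM (log2 change 4.78 ± 0.35), and Alas2, the first enzyme of haem synthesis in red cells, by 0.82 ± 0.22. Membrane genes of the red cell thus moved in both directions. Klf1 and Rhag did not pass.

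Megakaryocyte genes were split evenly, with 4 of 10 tested higher and 4 lower. The erythroid and platelet factor gene Nfe2 fell from 201, 206 and 208 CPM to 68.4, 82 and 97.6 CPM (log2 change -1.31 ± 0.13), and Rab27b, of platelet granule release, fell by 1.05 ± 0.11. Of 9 tested mast cell and basophil genes 4 rose and 1 fell. Cpa3, carboxypeptidase A3 of mast cell granules, rose from 22, 21.4 and 18.6 CPM to 89.8, 104 and 56.8 CPM (log2 change 2.02 ± 0.19). Ms4a2, a chain of the IgE receptor, rose by 1.09 ± 0.32, and its adjusted p was 0.0504 without culture replicate 2. Il4 fell by 1.04 ± 0.19.

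Of the neutrophil granule genes 18 of 20 did not pass, and their summed level varied widely between tissue libraries. It was 2.52 to 4.03 CPM in culture and 16.8 to 111 CPM in lung, and 389 to 2416 CPM in bone marrow. The 1 that rose was Chil3, whose call was lost without any 1 culture library (adjusted p = 0.0585 to 0.0623), and the 1 that fell was Ms4a3. The median log2 change was 4.23, and 4.17 with genes at 0 reads set to their bound. Ngp was at 0.445, 0.677 and 0.213 CPM in culture and at 19.9, 2.45 and 2.63 CPM in lung (adjusted p = 0.0719). Its adjusted p was 0.000322 by DESeq2. By edgeR it was 0.028 in the 6 libraries alone and 0.0447 without bone marrow replicate 3. The count depended on the method: 15 members rose by DESeq2, 11 in the 6 libraries alone and 13 without bone marrow replicate 3. Ms4a3 was chosen after its values were seen.

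Monocyte and macrophage maturation genes rose in 12 of 15 tested members and fell in 1 (median log2 change 3.33, and 2.90 with genes at 0 reads at their bound). Their summed level was 213 to 241 CPM in culture and 247 to 276 CPM in lung, with a large share from Ctsc, a lysosomal protease gene, which was at 195, 210 and 221 CPM in culture and 157, 186 and 172 CPM in lung. The fall of Ctsc (log2 change -0.28 ± 0.11, adjusted p = 0.042) had an adjusted p of 0.0661 under upper-quartile scaling and of up to 0.151 with 1 library left out. With only genes of at least 1 CPM in 6 libraries tested, 5 members rose.

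Markers of cells that a lung sample could hold were also measured. Of 18 epithelial markers 5 passed the filter on low counts and 3 of them rose. Among those that did not pass the filter, Scgb1a1, of airway club cells, was at 28.7 and 23.5 CPM in lung replicates 1 and 2 and at 0.0633 CPM in lung replicate 3, and at 0, 0.0308 and 0 CPM in culture. Sftpa1, which did pass the filter, was at 11.1, 4.04 and 2.72 CPM in lung. The summed epithelial level was 38.2 to 108 CPM in lung and 32.8 to 35.8 CPM in culture, where Hopx held most of it, at 29.3, 28.3 and 30.9 CPM. Epcam and Cdh1 had no read in culture.

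Of 15 tested endothelial markers 13 rose and 1 fell. Tie1, a defining receptor of endothelium, had no read in culture and was at 4.4, 0.848 and 1.14 CPM in lung. Ramp2 and Clec14a, 2 further endothelial genes, also had no read in culture. The summed level was nonetheless 358 to 401 CPM in culture and 313 to 359 CPM in lung, with most of it from Egfl7, Plvap and Calcrl. Egfl7 was at 112, 109 and 111 CPM in culture and at 111, 115 and 132 CPM in lung. Calcrl, the 1 that fell, went from 177, 189 and 213 CPM to 75.6, 73.4 and 52.1 CPM, and was chosen after its values were seen. Plvap rose from 62.7, 60.3 and 69.2 CPM to 108, 96 and 118 CPM (log2 change 0.74 ± 0.09). Lung replicate 1 held the highest values of Tie1, Ramp2, Clec14a, Sftpc and Sftpa1.

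Of stromal markers 6 of 10 tested rose, with a summed level of 203 to 291 CPM in lung and 256 to 276 CPM in culture. Col1a2, a collagen I chain, was at 210, 219 and 222 CPM in culture and at 173, 213 and 150 CPM in lung (adjusted p = 0.125), and Dcn, decorin, at 28.5, 30.8 and 33.1 CPM and at 51.7, 53.1 and 29.7 CPM (adjusted p = 0.0449, and 0.0703 to 0.18 in 6 of the 9 fits that left out 1 library). Col1a2 passed as lower by edgeR with no low-count filter (adjusted p = 0.0239) and with a replicate block (adjusted p = 0.0208). It also passed without bone marrow replicate 3 (edgeR adjusted p = 0.0438) or lung replicate 2 (edgeR adjusted p = 0.0247). Resident macrophage markers rose in 5 of 9 tested and fell in 3, with a summed level of 145 to 206 CPM in lung and 234 to 257 CPM in culture. That sum was mostly Slc40a1, the iron exporter ferroportin, which fell from 222, 240 and 246 CPM to 194, 151 and 137 CPM (log2 change -0.55 ± 0.11). Axl fell by 0.87 ± 0.19, and the complement genes C1qa and C1qc had no read in culture.

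Alveolar macrophage markers rose in 4 of 5 tested, with sums of 6.48 to 22.8 CPM in lung and 0.585 to 0.742 CPM in culture. The sums were higher in bone marrow, at 29.6 to 159 CPM. Chil3, which is also on the neutrophil granule list, made up the largest part of the tissue sums. It was at 16.9, 4.93 and 3.32 CPM in lung and at 28.7, 69.1 and 157 CPM in bone marrow. Car4 had 128 reads over the lung libraries and 0 in culture and in bone marrow. Of 2 tested dendritic cell markers Ccr9 rose and Zbtb46 fell, the latter from 35.6, 38.9 and 39.7 CPM to 16.4, 16.8 and 15.4 CPM. The call of Ccr9 (adjusted p = 0.0486) was lost by DESeq2 (adjusted p = 0.0838) and in 7 of the 9 fits that left out 1 library. Dendritic sums were 17.5 to 18.6 CPM in lung and 36 to 40.3 CPM in culture.

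B cell markers summed to 19 to 91.9 CPM in lung and 311 to 325 CPM in culture, nearly all from Ighm, the heavy chain constant gene, at 319, 310 and 324 CPM in culture and at 60.7, 12.1 and 86.2 CPM in lung (log2 change -2.58 ± 0.96, edgeR adjusted p = 0.0611). Ighm passed as lower by DESeq2 (adjusted p = 0.0103). By edgeR its adjusted p was 0.0376 in the 6 libraries alone, 0.0344 with a replicate block and 0.0243 without bone marrow replicate 2. Cd79b and Ms4a1 had no read in culture. Of 8 tested 4 rose, Igkc among them, from 0.297, 0.492 and 0.462 CPM to 4.01, 3.39 and 1.77 CPM. Of 5 tested T and NK cell markers 4 rose and 1 fell, Lck (adjusted p = 0.0453, and up to 0.136 with 1 library left out), with sums of 10.8 to 15.2 CPM in lung and 10.4 to 10.9 CPM in culture. Nkg7 had 104 reads over the lung libraries and 1 in culture. The part of host cells in the lung samples in any rise above was not tested.

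A last description concerns chromosomes and was chosen after the values were seen. Over 9224 protein-coding genes of at least 5 CPM on average, 31.6% fell and 30% rose in lung, with a median log2 change of -0.01. On chromosome 3, 50% of 436 genes fell and 15.1% rose (median -0.27), and on chromosome 6, 48.7% of 421 genes fell and 17.1% rose (median -0.28). Each lung library showed this: against the culture mean the chromosome 3 medians were -0.29, -0.24 and -0.32, and the chromosome 6 medians -0.28, -0.27 and -0.27. The culture libraries themselves lay within 0.012 of their mean on both. In bone marrow, which shares the culture reference, the medians were -0.44 and -0.35. Smaller shifts the same way in lung were found on chromosomes 7, 14, 18 and X, with medians of -0.162, -0.145, -0.108 and -0.102. On chromosome 7, 41.3% of 695 genes fell and 20.3% rose.

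Within chromosomes the shift was not even. Windows of 10 Mb with at least 20 such genes had medians below 0 in 9 of 9 cases on chromosome 3, from -0.49 to -0.14. On chromosome 6 the windows between 30 and 120 Mb had medians of -0.46 to -0.17, and the 3 windows from 120 Mb to 150 Mb had medians of 0.02, 0.04 and 0.03. On chromosome 7, 12 of 13 windows had medians below 0. On chromosome 14 the windows from 20 to 50 Mb lay at -0.40, -0.41 and -0.55, and the next window, from 50 to 60 Mb, at 0.05. Beyond it, the window from 60 to 70 Mb lay at -0.16 and that from 70 to 80 Mb at 0.11.

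**Figure D5:**
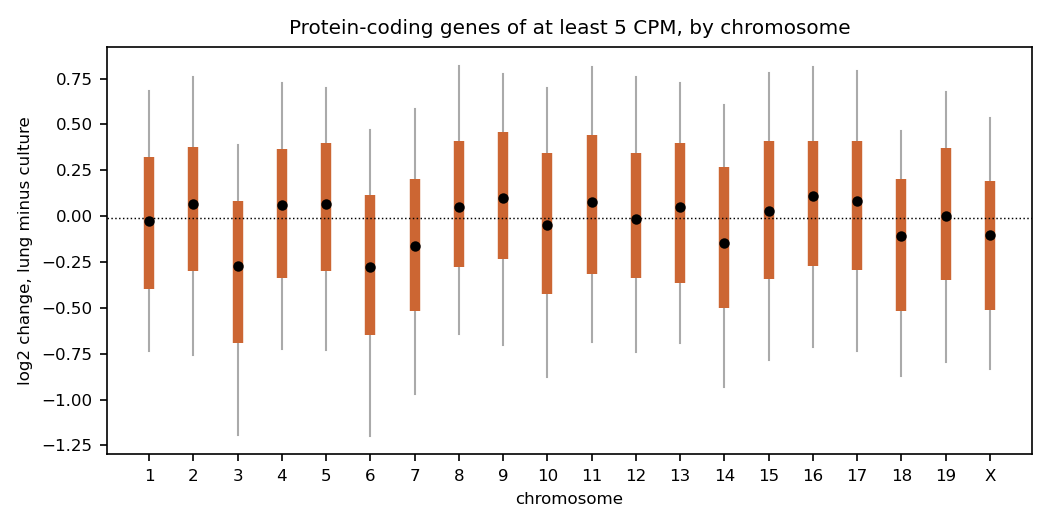
Log2 change in lung against culture of 9224 protein-coding genes of at least 5 CPM, by chromosome. Black points are medians, orange bars the middle 50% of genes and grey lines the 10th to 90th percentile; the dotted line is the median over all these genes, -0.01. Chromosomes 3 and 6 have the lowest medians, -0.27 and -0.28.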

How the data were processed

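The authors deposited 1 table of raw read counts per gene for each of the 9 libraries, 3 per group. Per the labels' protocols, RNA was extracted with RNeasy Plus Micro, amplified with SMART-seq v4 and made into libraries with ThruPLEX. Per the submitters' processing notes, bcl2fastq, STAR and mm10 were used; versions, the counting tool, its annotation and its use of strand were not given in the sources used here, so antisense and overlapping genes cannot be told apart.

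Counts were fitted with edgeR 4.0.16 (R 4.3.3, limma 3.58.1): low-count filter, TMM scaling, quasi-likelihood test over all 9 libraries, contrast lung minus culture, Benjamini-Hochberg adjusted p under 0.05. All adjusted p-values and SEs in the report come from this fit unless another is named. The members and gene lists were chosen with earlier results of these data known. The rule named the 12 largest rises and 12 largest falls reaching 10 CPM with groups that did not overlap, up to 2 called members per direction of each list, the 2 most abundant members of each marker list, and Trp53, Ptprc and Kit; some genes it picks are not reported here. Tested on simulated data for lung against culture over 14696 genes, the fit recovered 35 of 67 genes changed 1.5-fold, 57 of 67 changed 2-fold and 66 of 66 changed 4-fold, with 11 false calls. Alternatives were other scalings and filters, DESeq2 1.42.0, the 6 libraries alone, a replicate block and leaving out each library. Positions are from GENCODE M21 (53292 of 55291 symbols matched, with 99.1% of reads) and promoters, 250 bases before to 50 after each start, from RefSeq GRCm38.p6 (10395 of 15066 tested genes matched). Figures were drawn with matplotlib 3.10.9.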

Additional observations from a re-analysis of the deposited data

Results flagged for a closer look

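Among the reported genes that the naming rule picked, 3 had lung and bone marrow libraries on opposite sides of the culture libraries. For these the test of lung against bone marrow passed. Genes chosen outside the rule were not examined in this way, Fos among them, whose values above also lie on opposite sides of culture. Fosb was higher in lung than in bone marrow by 8.42 ± 0.27 on the log2 scale (SE; edgeR's quasi-likelihood test, adjusted p = 1.94e-10). The same difference was 6.13 ± 0.15 for Dusp1 (edgeR adjusted p = 3.36e-11) and 3.93 ± 0.22 for Nr4a1 (edgeR adjusted p = 1.31e-07). Against culture, bone marrow was lower by edgeR for Fosb (log2 change -2.35, adjusted p = 0.00013), Dusp1 (log2 change -2.43) and Nr4a1 (log2 change -2.74). Each gene was higher in 3 of 3 lung libraries and lower in 3 of 3 bone marrow libraries than in any culture library.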

How the results depend on the processing

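Between 6837 genes (at least 1 CPM in 6 libraries) and 9116 genes (no low-count filter) were called in lung against culture under the other settings, and 7142 (without culture replicate 2) to 8865 with 1 library left out, against 8271. No gene named by the rule reversed. Of 609 counts recomputed under other settings 555 were within 1.5 times the reported count, as were 726 of 783 with 1 library left out; the cause of the others was not tested unless the setting tests fewer genes. In the 6 libraries alone the members higher numbered 19 for the respiratory chain, 11 for DNA replication, 11 for neutrophil granules and 2 for resident macrophages, and those lower 0 for immediate early genes, 2 for type I interferon, 1 for interferon gamma, 5 for DNA replication, 1 for B cells and 1 for epithelium. DESeq2 gave 15 higher neutrophil granule genes, 0 higher dendritic markers, 1 lower B cell marker and 1 lower epithelial marker. With no low-count filter 2466 genes were over 2-fold higher; higher members numbered 2 for hypoxia, 5 for stem factors, 8 for megakaryocytes, 3 for neutrophil granules, 7 for alveolar macrophages, 6 for dendritic cells, 12 for T and NK cells, 14 for epithelium and 10 for stroma, and lower ones 1 for interferon gamma, 0 for T and NK cells, 1 for epithelium and 1 for stroma. With at least 1 CPM in 6 libraries, 696 genes were over 2-fold higher and 926 lower; higher members numbered 7 for NF-kB, 1 for class II, 1 for stem factors, 6 for cytokine receptors, 5 for homing, 2 for megakaryocytes, 5 for monocytes, 0 for resident macrophages, 1 for alveolar macrophages, 0 for dendritic cells, 1 for B cells, 0 for T and NK cells, 5 for endothelium, 0 for epithelium and 1 for stroma, and lower ones 1 for class II and 0 for neutrophil granules. The filter of 1 CPM in 6 libraries tests no gene under 1 CPM in all culture and bone marrow libraries, so its smaller counts can mean fewer members tested. Upper-quartile scaling gave 0 lower monocyte genes and 0 lower T and NK genes. Whether the replicate numbers pair the samples is not stated in the labels. Same-numbered lung and culture libraries had correlations of -0.03, 0.002 and -0.02 of their deviations from the group means. Taken over all tested genes, these values cannot exclude a pairing that acts on few genes. The replicate block called 8433 genes, 8102 of them among the 8271, with 0 lower immediate early genes and 1 lower gene each for interferon gamma, B cells, epithelium and stroma. With 1 library left out, higher members ranged over 2 to 7 for epithelium, 3 to 8 for B cells, 4 to 10 for DNA replication, 0 to 3 for dendritic cells, 4 to 8 for fatty acid oxidation, 1 to 2 for fatty acid synthesis, 3 to 5 for lysosome and 0 to 13 for neutrophil granules (13 without bone marrow replicate 3). Lower members ranged over 2 to 6 for DNA replication, 1 to 2 for type I interferon, and 0 to 1 for epithelium, B cells, stroma, immediate early genes, interferon gamma, monocytes, the respiratory chain, and T and NK cells. At 1.5-fold the simulated recovery was 52.2%. Only 200 genes were changed in the simulation, far fewer than the 8271 called here. The adjusted p cut-off depends on that number, so the recovery cannot be carried over to the real fit. A gene that did not pass may still have changed.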

Other observations

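By annotated class, in values chosen after they were seen, lincRNAs were lower in lung in 126 (30.5%) and higher in 60 (14.5%) of 413 tested genes. Of 55 tested small nucleolar RNA genes 18 (32.7%) were higher and 1 (1.82%) was lower, with a median log2 change of 0.97. Of all genes tested, 27.9% were higher and 27% lower, so the lower lincRNAs and the higher small nucleolar RNAs were near those shares. The higher lincRNAs (14.5%) and the lower small nucleolar RNAs (1.82%) lay well under them. Reads of such genes can come from the introns that hold them, and strand use in counting is not given in the sources used here.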
